A study of Rattus norvegicus with 11 samples.

Results

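Fgf21 and Gdf15, the genes of 2 secreted stress hormones, were chosen for high levels in untreated sensory neurons of the rat dorsal root ganglion (DRG) and for levels that varied between treated cultures. They are 2 of the 22076 genes with values in the table, chosen by name and followed in all 11 libraries. Their levels, including all differences between groups, are therefore given as a description with no test. Wild-type sensory neurons of Sprague-Dawley embryos were taken at embryonic day 15, purified by immunopanning (removal or capture of cells on antibody-coated dishes) and cultured. On day 13 in vitro, 4 cultures received Schwann cell conditioned medium (SCCM) overnight and 4 received prostaglandin E2 (PGE2) at 1 µM, while 3 were left untreated, and RNA was taken from all on day 14. The ganglia of 10 to 18 embryos of 1 pregnant rat were pooled for each experiment, and 1 pregnant rat was 1 biological replicate. The comparison group is labelled untreated, and the composition of the conditioned medium is not stated.

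Levels are in FPKM, which divides fragments by the length of the transcript and by the library's mapped fragments, so levels can be set side by side between genes. Between 15664 and 17137 genes had a value above 0 in a library, and mitochondrially encoded genes held 3.20% to 10.9% of the summed FPKM. Fragment totals are not given. The most common ratio of low FPKM values between libraries gave a rough estimate of 1.32-fold from the shallowest to the deepest. Differences in expression may also shift that ratio. Neuronal markers were abundant in every library, and all 14 had at least 1 FPKM in some library, led by Prph, the peripherin of sensory axons, at 1831 to 3280 FPKM.

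FGF21 is an endocrine fibroblast growth factor best known from the liver, where fasting and stress raise it. It needs the co-receptor beta-Klotho (Klb) beside an FGF receptor. GDF15 is a distant member of the TGF-beta family that cells release under many stresses, and its receptor GFRAL acts with RET in neurons of the hindbrain. Both genes are known targets of the integrated stress response, in which kinases that sense amino acid lack, unfolded protein, haem lack or viral RNA phosphorylate eIF2alpha and so favour translation of the transcription factor ATF4. GDF15 is also a known target of p53, and FGF21 of PPARalpha in the liver.

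The promoter sequence of Fgf21 is shown because the letters that ATF4 and its C/EBP partners are known to bind are found in it. It is the 250 bases before the annotated start in RefSeq, build GRCr8, on the minus strand at chr1:105221377-105221626. The capitals mark, in order, a match to the C/EBP-ATF response element TGATGNAAN on the opposite strand, at bases -144 to -136 from the start, and an E-box CACGTG at bases -54 to -49, whose last base also opens a GC box GGGCGG. RefSeq lists a pair of starts for Gdf15, and from the downstream start a 30-base stretch is shown, bases -97 to -68 at chr16:18839168-18839197 on the plus strand, with the antioxidant response element core TGACNNNGC, read on the opposite strand, in capitals.
Fgf21 promoter: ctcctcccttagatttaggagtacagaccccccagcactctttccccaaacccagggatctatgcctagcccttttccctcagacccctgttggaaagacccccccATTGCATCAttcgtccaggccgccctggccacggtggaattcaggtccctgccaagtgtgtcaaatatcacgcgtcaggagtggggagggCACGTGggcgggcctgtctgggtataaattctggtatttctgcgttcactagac
Gdf15 stretch: ccgcccggattaGCCTGGTCAcccgagttg

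Both strands of 33469 such windows of 250 bases were searched for 6 sets of letters. The C/EBP-ATF response element was found in 3.38% of windows, in the Fgf21 window and in neither Gdf15 window. Among 38 genes with a window, those of a list of ATF4 and CHOP targets joined by the factor genes Atf4, Trib3, Ddit3 and Atf3, 10 held it, namely Aars1, Chac1, Iars1, Mars1, Nars1, Pck2, Pycr1, Slc7a1, Tars1 and Trib3. These are counted by gene, and a gene can have several windows, so they do not compare directly with the share of windows. The E-box stood in 5.59% of windows and the antioxidant core in 10.1%. The GC box GGGCGG was found in 30.5% of windows, at 2 places before Fgf21 and 5 places before the downstream Gdf15 start. The cAMP response element TGACGTCA (1.59% of windows) and the ER stress response element (0.0657%) were in neither gene's windows. These matches describe letters in a short window, and no binding was measured.

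Fgf21 was among the most abundant transcripts of the untreated neurons and lay in a high and a low range in treated ones. Its level was 348.64, 37.31, 51.22 and 38.17 FPKM in SCCM cultures 1 to 4, 506.23, 735.06, 55.29 and 30.36 FPKM in PGE2 cultures 1 to 4, and 572.47, 499.94 and 485.38 FPKM in untreated cultures 1 to 3. SCCM culture 1 and PGE2 cultures 1 and 2 stood with or near the untreated cultures, and the other 5 treated cultures stood far below all of them. Ranked among the 22076 genes of a library, Fgf21 was 113th, 2042nd, 1402nd and 2011th in SCCM cultures, 58th, 40th, 1333rd and 2346th in PGE2 cultures, and 50th, 72nd and 82nd in untreated cultures. Even the lowest library kept it well above the 1 FPKM used as the limit for testing.

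The spread within the treated groups was far wider than in the untreated group. Fgf21 averaged 119 ± 153 FPKM in SCCM cultures (SD, n = 4) and 332 ± 347 FPKM in PGE2 cultures (SD, n = 4), against 519 ± 46.6 FPKM in untreated cultures (SD, n = 3). The highest library of a group exceeded its lowest 9.34-fold with SCCM, 24.2-fold with PGE2 and 1.18-fold in untreated cultures. In the order of the 11 levels the widest gap lay between SCCM culture 1 and PGE2 culture 3, 6.31-fold or 2.63 on the log2(FPKM + 1) scale, where the pooled SD within groups was 1.68. Every other pair of neighbours differed by at most 0.476 on that scale. The SD includes the split itself, since high and low cultures share the treated groups, so it cannot judge these gaps.

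Differences between groups were taken from a limma model of log2(FPKM + 1), a scale on which changes at low levels look smaller than they are. The SEs and 95% intervals describe the fit and are not tests, because the levels in these groups were used to choose the genes. For Fgf21 the difference was -2.84 for SCCM against untreated cultures (SE 1.08, 95% interval -5.21 to -0.47), and all 4 SCCM cultures lay below all 3 untreated ones. Of the 12107 genes tested, 711, or 5.87%, had all SCCM cultures below all untreated ones, and nothing is read from this share because this contrast chose the gene. For PGE2 against untreated cultures the difference was -1.70 (SE 1.08, 95% interval -4.06 to 0.67), with 2 PGE2 cultures below and 1 above all untreated cultures, a contrast in which all PGE2 cultures were below the untreated ones for 3.58% of genes and apart from them in either direction for 5.33%. Both differences use the same 3 untreated cultures. Without PGE2 culture 4 the PGE2 difference was -0.91.

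**Figure D1:**
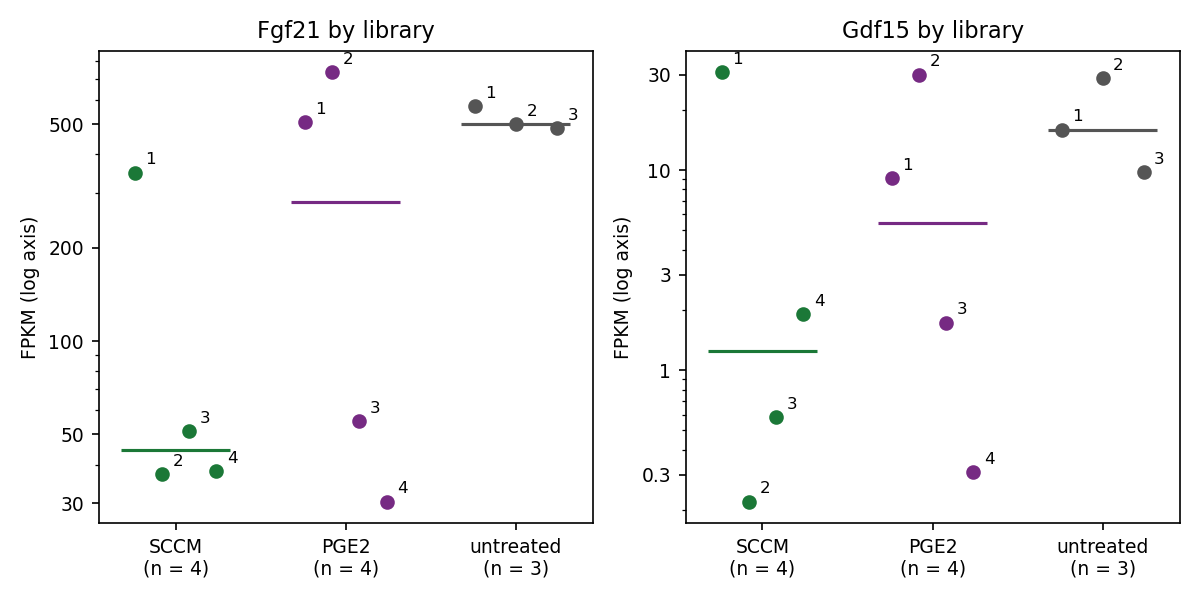
FPKM of Fgf21 (left) and Gdf15 (right) on log axes in the SCCM, PGE2 and untreated libraries, with 1 point per library, its replicate number beside it and a line at the group's median. SCCM culture 1 and PGE2 cultures 1 and 2 stand with the untreated cultures for both genes, at 348.64 FPKM or more of Fgf21 and 9.14 FPKM or more of Gdf15, and the other 5 treated cultures lie at 55.29 and 1.9 FPKM or less.

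Gdf15 was far less abundant than Fgf21 but split the cultures in the same way and over a wider range. Its level was 30.83, 0.22, 0.58 and 1.9 FPKM in SCCM cultures 1 to 4, 9.14, 29.95, 1.73 and 0.31 FPKM in PGE2 cultures 1 to 4, and 15.93, 28.83 and 9.77 FPKM in untreated cultures 1 to 3. Its highest library of all, SCCM culture 1, and its lowest, SCCM culture 2, came from the same group, whose range of 140-fold spans that of the series. For Fgf21 the PGE2 group held both ends. The range was 96.6-fold with PGE2 and 2.95-fold in untreated cultures. Gdf15 averaged 8.38 ± 14.98 FPKM with SCCM (SD, n = 4) and 10.3 ± 13.7 FPKM with PGE2 (SD, n = 4), against 18.2 ± 9.73 FPKM in untreated cultures (SD, n = 3).

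For Gdf15 the difference was -2.27 for SCCM against untreated cultures (SE 1.19, 95% interval -4.87 to 0.34) and -1.60 for PGE2 against untreated cultures (SE 1.19, 95% interval -4.21 to 1.00). These values are nearer 0 than those of Fgf21, but with a pseudocount of 0.1 in place of 1 the order turned, at -3.12 and -2.13 for Gdf15 and -2.86 and -1.71 for Fgf21. In each treated group 3 cultures lay below all untreated cultures and 1 lay above them, SCCM culture 1 and PGE2 culture 2. The PGE2 difference was -0.89 without PGE2 culture 4 and -2.41 without PGE2 culture 2. In the order of the levels the widest gap lay between PGE2 culture 1 and SCCM culture 4. It was 4.81-fold, or 1.81 on the log2(FPKM + 1) scale, where the pooled SD within groups was 1.84. That SD includes the split itself, since high and low cultures share the treated groups, so it cannot judge this gap.

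Between the treatments the groups overlapped for both genes. No p is given, because the spread among treated cultures was used to choose the genes. Fgf21 differed by -1.15 between SCCM and PGE2 cultures (SE 1.00, 95% interval -3.34 to 1.05) and Gdf15 by -0.66 (SE 1.10, 95% interval -3.08 to 1.75), which turned to 0.14 without PGE2 culture 2. Because the interval of Fgf21 reaches to -3.34, likeness of the treatments is not shown. Across all genes 397 (3.28%) had an unadjusted p under 0.05 between the treatments, and 1 (0.00826%) was called, Sbno2, which was 2.38 higher in SCCM cultures (SE 0.27, limma, Benjamini-Hochberg adjusted p = 0.0278). That call was lost with a pseudocount of 0.1, with no filter, and in 8 of 11 fits that each left out a culture, all but those without PGE2 culture 2, untreated culture 1 or untreated culture 3.

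The same 6 libraries were high for both hormones, and the order of libraries inside the high set differed. Over all 11 libraries Pearson's r of log2(FPKM + 1) was 0.93 and Spearman's rho 0.78. The libraries form separate clusters, so this r describes the split between them and carries no p. Within the 6 high libraries r was -0.01 and rho -0.14, and r was 0.17 in the 4 left without the pair farthest from the median. These 6 were set apart by the level of Fgf21 itself, which leaves it little range, so these values are a description too. The 5 low libraries are too few for a correlation. After subtraction of the group means r over all 11 libraries was 0.92, and in the 8 treated libraries alone it was 0.93.

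Fgf21 exceeded Gdf15 in every library, by a ratio that differed widely between cultures. The ratio of their FPKM was 11.3, 169.6, 88.3 and 20.1 in SCCM cultures 1 to 4, 55.4, 24.5, 31.96 and 97.9 in PGE2 cultures 1 to 4, and 35.9, 17.3 and 49.7 in untreated cultures 1 to 3. The highest and the lowest ratio both came from the SCCM group.

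**Figure D2:**
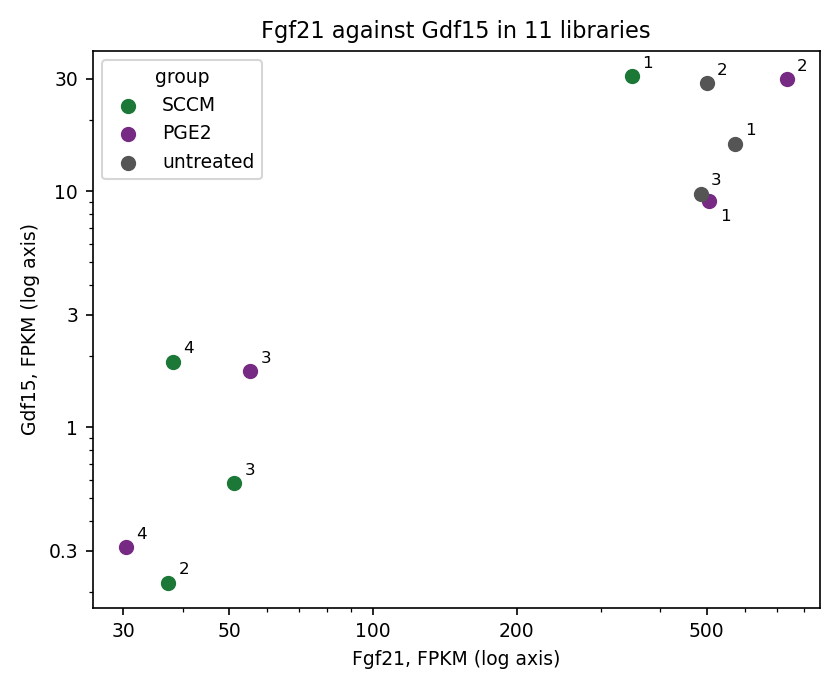
Gdf15 against Fgf21 in FPKM, both on log axes, with 1 point per library, coloured by group and marked with its replicate number. The 6 libraries at the upper right and the 5 at the lower left are separated on both axes, and inside the upper set r is -0.01.

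Among secreted fibroblast growth factors, Fgf21 was the leading ligand of the untreated neurons. It exceeded all 16 others with a row in SCCM cultures 1 and 4, PGE2 cultures 1 and 2 and all 3 untreated cultures, and elsewhere only Fgf1, a broad-acting FGF that lacks a signal peptide, stood above it. Fgf1 was 36.72 to 117.21 FPKM with SCCM, 73.55 to 116.97 FPKM with PGE2 and 29.15 to 92.51 FPKM in untreated cultures, so these ranges overlapped. The ratio of Fgf21 to Fgf1 was 0.318 at its lowest, in SCCM culture 2, and 16.7 at its highest, in untreated culture 3. Of the 4 other FGF genes that passed the limit for testing, 3 were higher and 1 lower in the mean of SCCM cultures, with a median difference of 0.24, and none was called. The lower one was Fgf9, a growth factor that neurons secrete, at -0.78 (SE 0.32), while Fgf18 was at 0.92 (SE 0.59). The median of the 4 turned to -0.14 without untreated culture 3.

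Gdf15 had closer company among ligands of the TGF-beta family. It exceeded all 35 others in SCCM culture 1, PGE2 culture 2 and untreated culture 2. The counts given here for the family include Bmp1, which encodes a protease and not a ligand. In the other libraries 7 to 12 ligands stood above it where it was under 2 FPKM and 2 or 3 where it was 9.14 to 15.93 FPKM. The highest other ligand was Gdf1 in all SCCM cultures and in untreated cultures 2 and 3, and otherwise Tgfb1 or Gdf11. Of the 14 other family members tested, 12 were lower in the mean of SCCM cultures and 12 lower in the mean of PGE2 cultures, with median differences of -0.47 and -0.59, and with no call. With single cultures left out these medians ranged from -0.78 to -0.31 and from -0.75 to -0.34. Under the other settings they ranged from -0.76 to -0.32 with SCCM and from -1.10 to -0.22 with PGE2. The -1.10 came with a pseudocount of 0.1.

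Neurturin (Nrtn), a neurotrophic ligand that signals through RET, showed the split of the members closely. It was 7.65, 0.55, 0.56 and 1.35 FPKM in SCCM cultures 1 to 4, 7.47, 12.39, 0.82 and 0.35 FPKM in PGE2 cultures 1 to 4, and 6.92, 11.91 and 18.66 FPKM in untreated cultures 1 to 3. The same 6 libraries were high. Tgfb3, a growth factor and the third most like Gdf15 of all genes, was 12.98, 0.69, 0.95 and 1.87 FPKM with SCCM, 4.85, 11.14, 0.63 and 0.46 FPKM with PGE2, and 8.41, 14.47 and 5.87 FPKM in untreated cultures.

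**Figure D3:**
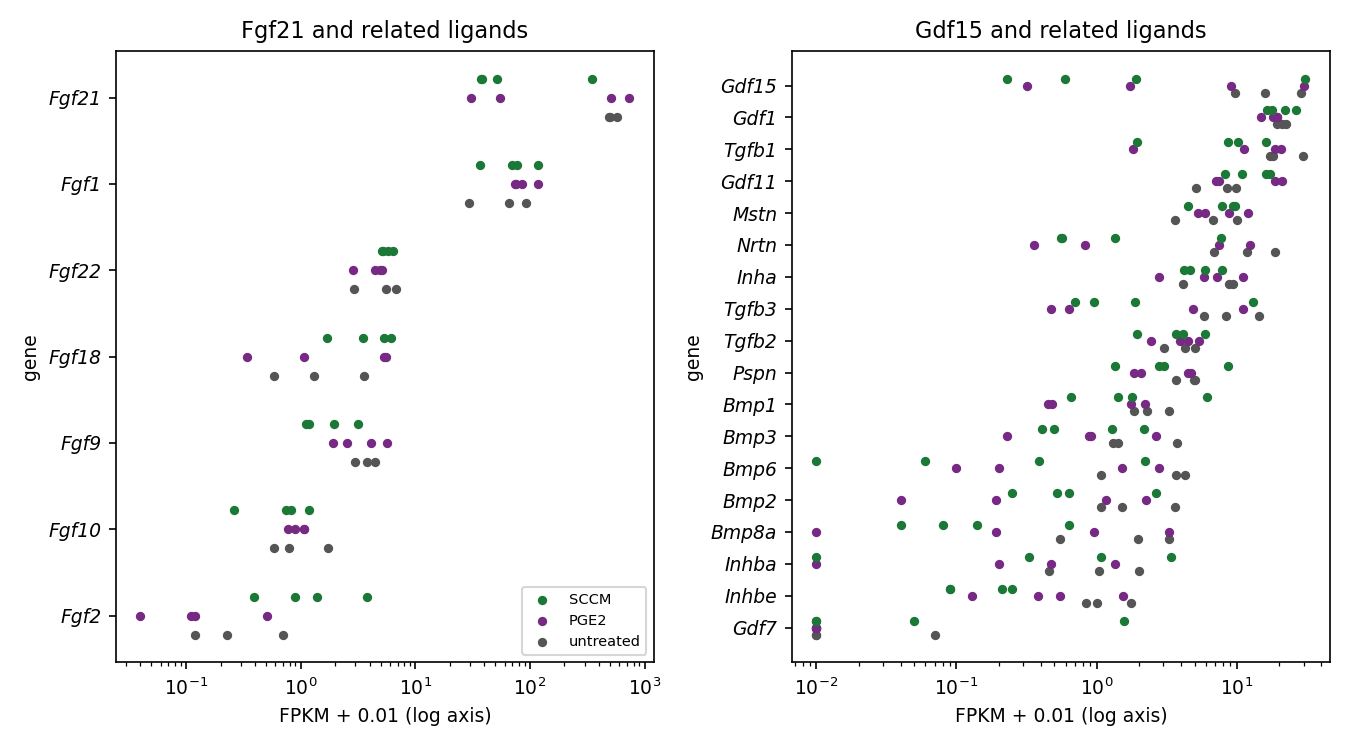
FPKM + 0.01 on log axes of Fgf21 with the other secreted FGF genes (left) and of Gdf15 with the other TGF-beta family ligands (right) that reached 1 FPKM in any library, 1 point per library coloured by group. The right panel includes Bmp1, which encodes a protease. Fgf21 lies at the right of its family in most libraries, with Fgf1 at 29.15 to 117.21 FPKM next, whereas Gdf15 runs from 0.22 to 30.83 FPKM across the levels of its relatives.

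Receptor transcripts for either hormone were low or near 0, apart from Ret and Fgfr1. Gfral, the GDF15 receptor, reached at most 0.04 FPKM, while its partner Ret, which also serves the GDNF family ligands, was 137 to 166 FPKM with SCCM, 100.2 to 274.7 FPKM with PGE2 and 90.3 to 194.6 FPKM in untreated cultures. No row with values was matched to Klb, so its level is not known here. Fgfr1 was the main FGF receptor at 5.02 to 8.06 FPKM with SCCM, 4.17 to 11.47 FPKM with PGE2 and 5.68 to 13.53 FPKM in untreated cultures. Fgfr2 stayed at or below 1.57 FPKM, Fgfr3 at or below 0.33 FPKM and Fgfr4 at or below 0.02 FPKM. Fap, the protease that inactivates human FGF21, was at or below 0.02 FPKM in every library.

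Proteases that mature GDF15 were present. Furin, a proprotein convertase that cleaves many growth factor precursors, was 32.93, 26.5, 28.31 and 21.79 FPKM in SCCM cultures 1 to 4, 15.45, 20.43, 13.22 and 13.21 FPKM in PGE2 cultures 1 to 4, and 26.0, 20.81 and 16.34 FPKM in untreated cultures 1 to 3. All SCCM cultures lay above all PGE2 cultures, which held in either direction for 2.21% of genes tested. The difference of 0.78 (SE 0.20) was not called (limma adjusted p = 1.00). Among its relatives, Pcsk7 was 4.49 to 8.02 FPKM, Pcsk6 was 0.44 to 4.75 FPKM and Pcsk5 at most 1.28 FPKM. Pcsk5 was low in the libraries with low hormone levels, at 1.26, 0.15, 0.09 and 0.27 FPKM with SCCM, 1.13, 0.98, 0.06 and 0.15 FPKM with PGE2, and 1.27, 1.28 and 0.91 FPKM in untreated cultures. Pcsk6 was lower in those libraries too, but less clearly. In SCCM culture 4, with low hormones, it was 2.62 FPKM, close to the 2.89 FPKM of SCCM culture 1.

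Transcripts of the integrated stress response were compared next, since both hormones are its targets. At an adjusted p under 0.05 no gene of any list was called for SCCM or PGE2 against untreated cultures, where 0 of 12107 genes (0.0%) were called in each. At an unadjusted p under 0.05, limma gave 1648 genes (13.6%) for SCCM and 692 genes (5.72%) for PGE2. Of all genes tested 61.3% had a lower mean with SCCM and 67.1% with PGE2, with medians of -0.13 and -0.16. After median-ratio scaling, which centres each library on its typical gene, these shares were 50.9% and 51.8% and the medians -0.01 and -0.02. The medians of lists are read beside those values.

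ATF4's own transcript varied over a narrower range. Atf4 was 381.56, 229.15, 300.16 and 231.47 FPKM in SCCM cultures, 354.46, 477.35, 335.99 and 308.22 FPKM in PGE2 cultures, and 237.71, 457.89 and 579.26 FPKM in untreated cultures. Untreated culture 1, with the most Fgf21 of its group, had an Atf4 level close to those of SCCM cultures 2 and 4. Since ATF4 is set mainly by translation, its transcript level does not measure its activity. Across the 11 libraries Atf4 had r 0.62 with Fgf21 and 0.59 with Gdf15.

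Transcription factors of the response differed in how far they followed the hormones. Of 11 tested, 8 had lower means with SCCM (median -0.51) and 8 with PGE2 (median -0.19, or -0.02 after median-ratio scaling), with none called, and the list's mean had r 0.71 with Fgf21 and 0.75 with Gdf15. Those medians ranged from -0.88 without untreated culture 1 to -0.26 without untreated culture 3, and from -0.50 without untreated culture 1 to -0.08 without PGE2 culture 4. Ddit3, which encodes CHOP, was 127.89, 19.33, 22.27 and 37.07 FPKM with SCCM, 191.25, 278.99, 33.48 and 31.94 FPKM with PGE2, and 48.3, 225.43 and 381.33 FPKM in untreated cultures (r 0.86 with Fgf21). Untreated culture 1 was again low for its group. Atf3, induced by stress and by nerve injury, was 48.23, 3.76, 8.38 and 56.66 FPKM with SCCM, 115.13, 58.0, 2.53 and 1.02 FPKM with PGE2, and 11.58, 47.8 and 56.52 FPKM in untreated cultures. SCCM culture 4 had an Atf3 level in the untreated range although both hormones were low in it. Nupr1, a stress-induced chromatin cofactor, was 51.76, 14.97, 30.08 and 24.18 FPKM with SCCM, 73.97, 86.3, 35.14 and 29.57 FPKM with PGE2, and 48.99, 103.1 and 37.83 FPKM in untreated cultures (r 0.84 with Fgf21 and 0.85 with Gdf15). All 6 libraries with high hormone levels exceeded all the others for Nupr1. Cebpb, a partner of ATF4, was 42.94, 33.1, 33.47 and 24.08 FPKM with SCCM, 23.5, 56.01, 25.03 and 13.24 FPKM with PGE2, and 25.71, 45.43 and 31.58 FPKM in untreated cultures. Its levels in low and high libraries overlapped (r 0.55 with Fgf21 and 0.63 with Gdf15).

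Atf5, a factor of the same family that also serves the mitochondrial stress response, ran against the hormones. It was 552.09, 957.91, 1002 and 991.61 FPKM in SCCM cultures, 622.9, 600.21, 1105 and 1018 FPKM in PGE2 cultures, and 485.51, 534.88 and 474.05 FPKM in untreated cultures. All treated cultures of both groups lay above all untreated cultures, which held for 4.72% of genes with SCCM and 1.75% with PGE2, and the 5 cultures with low hormone levels had the most. The differences were 0.77 for SCCM and 0.69 for PGE2 (SE 0.28 each), and neither was called. Its r was -0.94 with Fgf21 and -0.88 with Gdf15.

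The enzymes and transporters that ATF4 and CHOP are known to raise differed among themselves, while the mean of their list had r 0.79 with Fgf21 and 0.76 with Gdf15. Of 39 tested, 28 had a lower mean with SCCM (23 after median-ratio scaling), with a median difference of -0.25, and 23 with PGE2 at a median of -0.08, which turned to 0.08, with 15 lower, after median-ratio scaling. Asparagine synthetase (Asns), a classic ATF4 target, stayed between 53.78 and 61.58 FPKM with SCCM, 57.88 and 78.03 FPKM with PGE2, and 63.86 and 74.14 FPKM in untreated cultures. Chac1, a glutathione-degrading CHOP target, was 35.08 to 84.22 FPKM with SCCM, 62.47 to 118.46 FPKM with PGE2 and 44.48 to 99.61 FPKM in untreated cultures, with r 0.45 with Fgf21 and 0.36 with Gdf15. The glutamine and neutral amino acid transporter Slc1a5 was closer to the hormones, at 15.24, 3.73, 1.98 and 2.87 FPKM with SCCM, 13.62, 30.22, 8.6 and 1.42 FPKM with PGE2, and 16.93, 27.5 and 13.7 FPKM in untreated cultures (r 0.92 and 0.93). Sesn2, a brake on mTORC1 signalling, was 40.33, 8.9, 19.52 and 22.72 FPKM with SCCM, 59.34, 63.66, 16.23 and 14.23 FPKM with PGE2, and 16.86, 60.34 and 60.58 FPKM in untreated cultures, so that untreated culture 1 stood among the low libraries.

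The eIF2alpha kinases, their partners and the phosphatase subunits were lower on average in 13 of 17 cases with SCCM (median -0.44) and in 14 of 17 with PGE2 (median -0.24). After median-ratio scaling these were 12 of 17 at -0.32 and 11 of 17 at -0.09, and without PGE2 culture 2 the PGE2 median was -0.37. At an unadjusted p under 0.05, 5 of the 17 were lower with SCCM, where 8.76% of all genes tested were, and none with PGE2, where 4.04% were. The mean of this list had r 0.93 with Fgf21 and 0.92 with Gdf15. Ppp1r15a, the stress-induced phosphatase subunit that ends the response, was 131.9, 19.07, 27.85 and 40.1 FPKM with SCCM, 90.53, 148.14, 25.61 and 26.03 FPKM with PGE2, and 36.67, 156.57 and 167.19 FPKM in untreated cultures. Dnajc3, an endoplasmic reticulum (ER) co-chaperone that restrains these kinases, differed by -1.34 with SCCM (SE 0.49) and by -0.83 with PGE2 (SE 0.49).

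ER chaperones had lower means almost throughout. Of 23 tested, 22 were lower with SCCM and 23 with PGE2, with medians of -0.59 and -0.45, and 6 of 23 were lower with SCCM at an unadjusted p under 0.05 (8.76% of all genes). Hspa5, the chaperone BiP, was 266.51, 99.84, 96.92 and 146.98 FPKM with SCCM, 380.63, 492.33, 106.91 and 118.62 FPKM with PGE2, and 157.44, 461.13 and 846.41 FPKM in untreated cultures. P4hb, a protein disulfide isomerase, was 496.48, 69.93, 62.56 and 137.63 FPKM with SCCM, 318.06, 628.13, 63.02 and 59.57 FPKM with PGE2, and 236.07, 775.07 and 1821 FPKM in untreated cultures. Both were low in the 5 libraries with low hormone levels, but among the untreated cultures they were lowest in culture 1, where Fgf21 was highest. The medians ranged from -0.95 and -0.72 without untreated culture 1 to -0.27 and -0.22 without untreated culture 3, and after median-ratio scaling they were -0.50 and -0.29. The mean of the ER list had r 0.75 with Fgf21 and 0.73 with Gdf15.

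**Figure D4:**
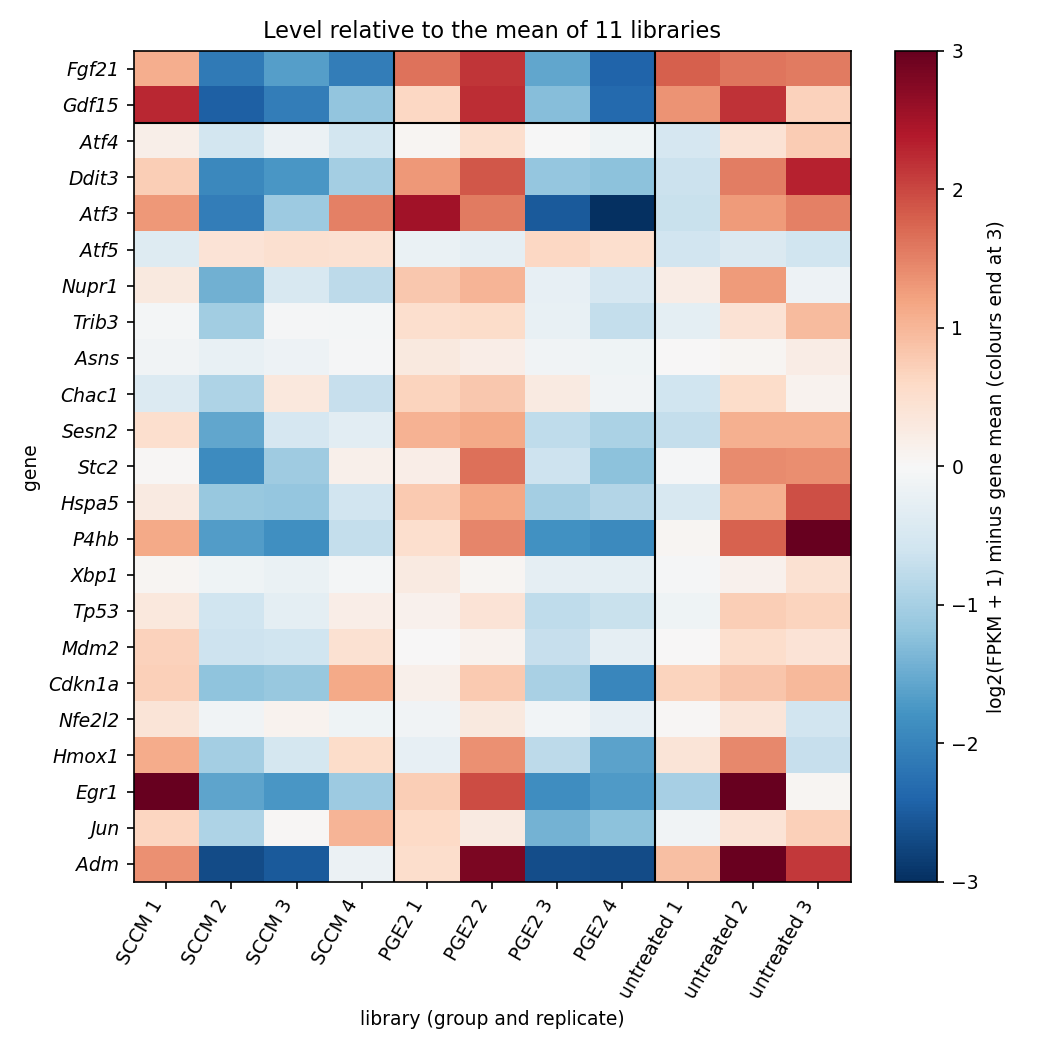
Level of Fgf21, Gdf15 and 21 stress-related genes in each library, as log2(FPKM + 1) minus the gene's mean over 11 libraries, with colours ending at 3 in either direction. Columns are SCCM, PGE2 and untreated libraries. Ddit3, Nupr1, Hspa5, P4hb and Adm are low in SCCM cultures 2 and 3 and in PGE2 cultures 3 and 4 as both hormones are, Atf5 runs the other way (r -0.94 with Fgf21), and Asns and Xbp1 vary little.

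Other stress programmes known to raise either hormone gave mixed pictures. Of 21 tested targets of p53, which is known to induce GDF15, 18 had lower means with SCCM and 18 with PGE2 (medians -0.49 and -0.43), with none called. After median-ratio scaling 17 and 14 were lower, at medians of -0.35 and -0.28, and without untreated culture 3 the SCCM median was -0.32. The PGE2 median was -0.66 without PGE2 culture 2 and -0.68 without untreated culture 1. The mean of the p53 list had r 0.82 with Fgf21 and 0.86 with Gdf15, beside 0.79 and 0.76 for the ATF4 and CHOP targets. Cdkn1a, the p53-induced cell cycle inhibitor p21, was 51.3, 12.82, 13.41 and 68.35 FPKM with SCCM, 34.25, 53.53, 15.14 and 7.22 FPKM with PGE2, and 49.44, 55.96 and 61.32 FPKM in untreated cultures. SCCM culture 4 had the highest Cdkn1a level of all libraries with Gdf15 at only 1.9 FPKM. Mdm2, a p53 target that degrades p53, was likewise 15.01 FPKM in SCCM culture 4, inside the untreated range of 10.8 to 15.94 FPKM.

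Genes of PPAR signalling and fasting, which govern FGF21 in the liver, had lower means in 8 of 12 cases with each treatment (medians -0.38 and -0.35, the PGE2 value turning to 0.05 when genes averaging under 5 FPKM were left out). The SCCM median was -0.20 without SCCM culture 2 and the PGE2 median -0.17 without PGE2 culture 3. For this list the mean had r 0.80 with Fgf21 and 0.90 with Gdf15. Ppara was at most 1.28 FPKM in any library. Ucp2, a mitochondrial carrier, was 89.7, 13.78, 11.04 and 22.86 FPKM with SCCM, 82.49, 94.28, 16.54 and 12.95 FPKM with PGE2, and 103.64, 95.89 and 108.98 FPKM in untreated cultures, the pattern of Fgf21 in its high and low libraries. Cpt1a, which admits fatty acids to mitochondria and is a classic PPARalpha target, was higher on average with SCCM by 0.86 (SE 0.27) and with PGE2 by 0.43 (SE 0.27).

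For the antioxidant programme of NRF2 the list's mean had r 0.17 with Fgf21 and 0.37 with Gdf15. Of 16 genes tested, 4 had lower means with SCCM and 7 with PGE2, with medians of 0.10 and 0.03 that turned to -0.06 and -0.17 without untreated culture 3. Nfe2l2, which encodes NRF2, was 38.93 to 56.09 FPKM with SCCM, 35.34 to 52.33 FPKM with PGE2 and 28.0 to 55.14 FPKM in untreated cultures. Hmox1, a haem-degrading enzyme under NRF2 and other factors, was 250.07, 56.45, 79.73 and 169.79 FPKM with SCCM, 97.0, 296.65, 66.28 and 36.92 FPKM with PGE2, and 149.57, 313.7 and 70.55 FPKM in untreated cultures, with r 0.64 with Fgf21 and 0.82 with Gdf15. Medians of the mitochondrial stress list (-0.09 with SCCM, -0.02 with PGE2) and of the heat shock list (-0.003 and -0.03) lay near 0 and changed sign under median-ratio scaling, to 0.05 and 0.15 and to 0.14 and 0.14. The mean of the mitochondrial list had r 0.62 with Fgf21 and 0.56 with Gdf15, and that of the heat shock list 0.34 and 0.13.

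Genes of hypoxia and glycolysis had lower means in nearly all cases. Of 27 tested, 26 were lower with SCCM and 27 with PGE2, with medians of -1.05 and -0.95, and without PGE2 culture 4 the PGE2 median was -0.53. Their mean had r 0.86 with Fgf21 and 0.90 with Gdf15. Adrenomedullin (Adm), a secreted peptide induced by low oxygen, was 18.1, 0.15, 0.29 and 5.48 FPKM with SCCM, 9.63, 51.09, 0.16 and 0.15 FPKM with PGE2, and 12.87, 56.52 and 30.87 FPKM in untreated cultures. None of the 27 was called, while 7 with SCCM and 3 with PGE2 were lower at an unadjusted p under 0.05 (8.76% and 4.04% of all genes). SCCM culture 4 was intermediate for Adm, and for Ankrd37, another hypoxia-induced gene, it had 16.39 FPKM beside untreated levels of 17.05 to 29.31 FPKM.

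Immediate early genes had lower means in 11 of 13 cases with SCCM and 12 of 13 with PGE2 (medians -0.78 and -0.84). The SCCM median ranged from -1.35 without untreated culture 1 and -1.29 without SCCM culture 1 to -0.40 without untreated culture 2. The PGE2 median ranged from -1.34 without PGE2 culture 2 and -1.29 without untreated culture 1 to -0.55 without untreated culture 2 and -0.56 without PGE2 culture 4. The mean of the list had r 0.79 with Fgf21 and 0.89 with Gdf15. Egr1, a factor switched on within minutes of stimulation, was 30.98, 0.23, 0.1 and 0.72 FPKM with SCCM, 5.11, 13.32, 0.0 and 0.13 FPKM with PGE2, and 0.84, 29.63 and 2.83 FPKM in untreated cultures (r 0.74 with Fgf21 and 0.88 with Gdf15). Its highest levels were in SCCM culture 1, untreated culture 2 and PGE2 culture 2, the 3 libraries with the most Gdf15. Genes of axotomy and regeneration had lower means in 11 of 16 cases with each treatment (medians -0.19 and -0.64), and the SCCM median turned to 0.14 without SCCM culture 2. Their mean had r 0.48 with Fgf21 and 0.58 with Gdf15. The injury neuropeptide galanin (Gal) was 49.47, 0.43, 5.02 and 92.8 FPKM with SCCM, 33.17, 16.45, 0.47 and 0.88 FPKM with PGE2, and 86.62, 10.78 and 23.03 FPKM in untreated cultures. Gal was thus highest in SCCM culture 4, a library with low hormones, as Atf3, Cdkn1a and Jun (156.18 FPKM) were within the SCCM group.

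**Figure D5:**
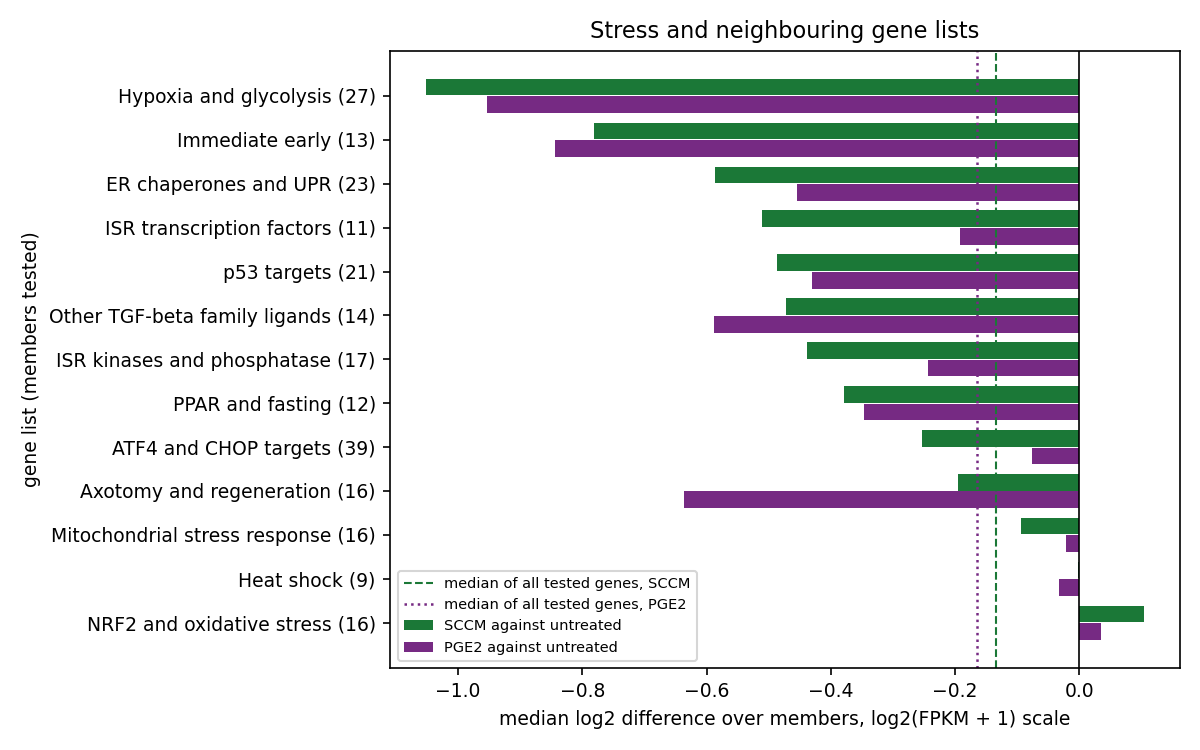
Median log2 difference over the tested members of 13 gene lists for SCCM (green) and PGE2 (purple) against untreated cultures, with dashed and dotted lines at the medians of all 12107 genes, -0.13 and -0.16. Hypoxia genes lie farthest below 0 at -1.05 and -0.95, and the NRF2 list is the one above 0 in both, though not without untreated culture 3 (-0.06 and -0.17).

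Many genes separated the libraries as the hormones did. Of 12106 genes compared, 375 (3.10%) had a Pearson r above 0.9 with Fgf21 and 375 with Gdf15, while 136 and 54 had one below -0.9. Gdf15 held the 109th place from the top among genes like Fgf21, and Fgf21 the 97th among genes like Gdf15. Of the 100 genes most like each, 25 were shared. All such values come from the same 11 libraries and rest on the split between them.

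The genes most like Fgf21 included Slc38a4, an amino acid transporter, with r 0.99, Pc, the pyruvate carboxylase that feeds the citric acid cycle, with r 0.98, Entpd2, an enzyme that cleaves extracellular ATP, with r 0.98, and Chek2, a DNA damage kinase, with r 0.98. Amz1, Zfpm1, Rab29, Tef, Gpr83 and AABR07061333.1 completed the first 10. Pc was 11.98, 6.19, 6.84 and 6.35 FPKM with SCCM, 16.55, 16.76, 7.47 and 4.87 FPKM with PGE2, and 14.67, 14.95 and 17.31 FPKM in untreated cultures. Its low and high libraries were those of Fgf21 over a narrower range of levels. Entpd2 spanned more, at 13.71, 0.42, 0.87 and 0.77 FPKM with SCCM, 11.74, 16.02, 0.59 and 0.35 FPKM with PGE2, and 11.82, 16.24 and 19.78 FPKM in untreated cultures.

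The genes most opposed to Fgf21 were Ttc13, Cplane1, Ghrl, Spg11 and Dync2h1, with r from -0.99 to -0.97. Ghrl, which encodes the appetite hormone ghrelin, was 11.66, 18.31, 18.17 and 19.73 FPKM with SCCM, 12.04, 11.28, 19.36 and 21.29 FPKM with PGE2, and 11.53, 10.56 and 12.35 FPKM in untreated cultures. The 5 libraries with low Fgf21 had the most Ghrl. Cplane1 and Dync2h1, both genes of primary cilia, reached at most 4.12 and 1.54 FPKM.

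The genes most like Gdf15 were led by Mcoln3, a lysosomal ion channel, Qars1, the glutaminyl-tRNA synthetase, and Tgfb3, with r of 0.99, 0.99 and 0.98, followed by Naa50, LOC103689996, Smpdl3b, Sdcbp2, Ifnar1, Grik3 and Mtmr3. Qars1 was 17.48, 8.76, 9.47 and 10.18 FPKM with SCCM, 15.53, 19.28, 11.24 and 9.25 FPKM with PGE2, and 17.46, 18.92 and 14.13 FPKM in untreated cultures. Grik3, a kainate-type glutamate receptor subunit, was 3.34, 0.37, 0.34 and 0.79 FPKM with SCCM, 1.96, 2.7, 0.4 and 0.39 FPKM with PGE2, and 2.33, 3.05 and 1.17 FPKM in untreated cultures. Lowest in r were AC103179.1, Ubqln2, Pcyox1, Cplane1 and Wnk2, from -0.96 to -0.95.

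Markers of other cells were mostly near or at 0, with exceptions that moved with the hormones. Of 10 macrophage markers 9 were under 1 FPKM in every library, and Ptprc and C1qb, which define leukocytes and microglia or macrophages, were at 0. The exception was Cd68, a lysosomal glycoprotein, at 14.54, 0.08, 0.08 and 0.37 FPKM with SCCM, 3.14, 13.55, 0.09 and 0.04 FPKM with PGE2, and 3.69, 18.32 and 45.11 FPKM in untreated cultures. The summed macrophage level was 0.16 to 15.04 FPKM with SCCM, 0.19 to 13.9 FPKM with PGE2 and 3.92 to 45.2 FPKM in untreated cultures. The 6 cycling cell markers summed to 2.51 to 8.54 FPKM with SCCM, 2.40 to 11.4 FPKM with PGE2 and 7.13 to 18.2 FPKM in untreated cultures, with Mcm6 the most abundant. The mean of the 3 that passed the limit for testing had r 0.88 with Fgf21. The part of these markers in the hormone levels was not tested.

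Glial and neuronal markers did not follow the hormones. The 14 Schwann and satellite glia markers summed to 60.6 to 101.7 FPKM with SCCM, 63.1 to 92.1 FPKM with PGE2 and 36.3 to 92.6 FPKM in untreated cultures, 8 of them under 1 FPKM throughout and Gfap at 0. The mean of the 3 glial markers that passed the limit for testing had r -0.02 with Fgf21. The r of the neuronal list's mean was -0.42 with Fgf21. Fibroblast markers summed to at most 3.75 FPKM and endothelial markers to at most 2.58 FPKM in any library, with Cldn5 and Emcn at 0. In such bulk samples fewer cells of a type and less RNA per cell cannot be told apart. The mitochondrially encoded share of FPKM was 4.09%, 8.06%, 3.71% and 10.9% in SCCM cultures 1 to 4, 5.36%, 3.20%, 7.86% and 8.14% in PGE2 cultures 1 to 4, and 5.54%, 3.37% and 5.24% in untreated cultures 1 to 3. It was highest in 4 of the 5 libraries with low hormone levels, SCCM culture 3 being the exception. Its part in those levels was not tested. The share of FPKM held by a library's 10 most abundant genes separated low from high libraries fully. This share was 9.79%, 11.21% and 11.97% in SCCM cultures 2 to 4 and 9.26% and 9.35% in PGE2 cultures 3 and 4. In all libraries with high hormone levels it was 6.70% to 7.70%. FPKM is relative to a library's mapped fragments, and the part of this share in the hormone levels was not tested.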

How the data were processed

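RNA was sequenced from poly-A enriched, stranded libraries of RNA with an integrity number above 8, per the labels' protocols. The deposited table holds FPKM computed by the authors, 1 column per library. The submitters' processing notes name the build Rnor 6.0. The aligner, counter and annotation used were not given in the sources used here. Lines without values (207489) were dropped. Fragment totals being unknown, no counting interval was set.

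Genes averaging 1 FPKM or more over all 11 libraries (12107) were tested as log2(FPKM + 1) in 1 limma model of 3 groups (version 3.58.1, R 4.3.3, with intensity trend), with two-sided tests whose p-values were adjusted over all genes of a comparison (Benjamini-Hochberg). Calls needed an adjusted p under 0.05. The fit was also run on simulated data in which genes varied independently, unlike in these clustered libraries, so nothing is read from it here. The members and gene lists were chosen with earlier results of these data known, and some genes are in several lists. Of 305 genes in the pathway lists, 233 were tested.

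Named were the members, the receptors and proteases, a set of stress genes, the most abundant marker of each cell type, the 10 highest and 5 lowest r with each member, and in every other list up to 3 members with the largest absolute difference when none was called. Ligands singled out by level, and Sbno2, were chosen after their values were seen. The planned permutation p for the correlation of both members and the planned test of the members between SCCM and PGE2 were left out, because the libraries fall into clusters by the members' own levels and the rule used the spread of treated cultures. Promoter sequences are RefSeq's, GRCr8. Alternatives were another pseudocount (0.1), no filter or a filter of 5 FPKM, median-ratio scaling, only the groups compared, no trend, a replicate block and each library left out. P-values set differences between group means against the spread of cultures within groups. That spread includes the split between high and low treated cultures.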

Additional observations from a re-analysis of the deposited data

Results flagged for a closer look

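In 58 groups of 4 libraries (the SCCM and PGE2 groups of 34 genes, where the highest level was at least 1 FPKM), a library stood apart from the other 3 by Dixon's 95% limit in 7. Chance marks about 1 group in 20, but Fgf21 and Gdf15 were chosen for varying between treated cultures, so their 2 groups are not set against that rate. SCCM culture 1 was that library in 6 of them. It had 348.64 FPKM of Fgf21, the other SCCM cultures 37.31 to 51.22 FPKM, and 30.83 FPKM of Gdf15, the others 0.22 to 1.9 FPKM. It was also high for Ddit3 (127.89 FPKM), Egr1 (30.98 FPKM) and Pcsk5 (1.26 FPKM) and low for Atf5 (552.09 FPKM). The remaining one was Trib3, an ATF4-induced pseudokinase, at 5.37 FPKM in SCCM culture 2, where the others had 11.69 to 11.83 FPKM. The genes share libraries and are not independent. No PGE2 group met the limit, and Fgf21 was split 2 against 2 there.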

How the results depend on the processing

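Fgf21 ranged from -3.60 to -2.54 for SCCM against untreated cultures when single libraries were left out, from -2.43 to -0.91 for PGE2 against untreated, and from -1.93 to -0.41 for SCCM against PGE2. Gdf15 ranged from -3.31 to -1.74, from -2.41 to -0.89, and from -1.71 to 0.14, where it reversed without PGE2 culture 2. The r between both ranged from 0.92 to 0.95. Under the other settings Fgf21 ranged from -2.86 to -2.30 with SCCM and from -1.71 to -1.16 with PGE2, and Gdf15 from -3.12 to -1.85 and from -2.13 to -1.19. With single libraries left out, genes called ranged from 0 to 1 for SCCM against untreated (1, Reg3b, without SCCM culture 1), stayed at 0 for PGE2, and ranged from 0 to 1 for SCCM against PGE2 (Reg3b without SCCM culture 1, otherwise Sbno2 or none), where pseudocount 0.1, no filter and the replicate block also gave 0. The cause was not tested. Of 540 list medians under these settings, 7 moved by more than the spread used to judge them. Medians against untreated cultures also changed sign in some settings. With both treatments this held for the mitochondrial stress, NRF2, heat shock and other FGF lists. It also held with PGE2 for the ATF4 and CHOP target and PPAR lists, and with SCCM for the axotomy list.

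The labels do not say whether a shared replicate number marks a shared litter. After subtraction of group means, same-numbered libraries correlated at -0.51 to 0.49 (median -0.18), over 0.1 in 3 of 10 pairs. Libraries of different groups and numbers correlated at -0.60 to 0.72 (median 0.07), over 0.1 in 14 of 30 pairs. The split between high and low libraries enters these values, so they cannot settle whether libraries were paired. With the replicate block Fgf21 was at -2.30 and -1.16 against untreated cultures and Gdf15 at -1.85 and -1.19, with 0 calls in each comparison. Unknown depth leaves Gdf15 levels under 1 FPKM with no counting interval.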
